A study of Homo sapiens with 11 samples.

Results

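The clustered histone genes are the 70 genes, of 36601 in the deposited feature list, whose symbols begin with HIST1H, HIST2H or HIST3H. There are 55 HIST1H genes, 12 HIST2H genes and 3 HIST3H genes. In the GENCODE release 29 annotation of GRCh38 the HIST1H genes lie on chromosome 6 between positions 25726132 and 27893843. The HIST2H and HIST3H genes lie on chromosome 1. They were followed in single-cell RNA counts of H9, an established human embryonic stem cell line, differentiated toward heart tissue and sampled on day 42.5. The 3 groups were chambered cardioids (heart organoids) with PD173074, a compound that blocks FGF receptor signalling, cardioids without PD173074, and a 2D culture of the same line. The labels do not give the dose or the timing of PD173074, or the number of separate cultures.

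Histones package DNA: H2A, H2B, H3 and H4 form the core of the nucleosome, and H1 binds the linker DNA between nucleosomes. Most clustered histone genes are transcribed in S phase, when new DNA must be packaged, and their mRNAs end in a conserved stem-loop bound by SLBP in place of a poly(A) tail. Some of them also give polyadenylated transcripts, which have been described in differentiated cells. The kit used here captures the 3′ ends of polyadenylated RNA, so a level below counts only those transcripts of a gene that were captured, and an order of genes by level is the order of their captured UMIs.

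The stem-loop was searched for in the annotated transcripts as 6 paired bases around a 4-base loop. It was found in 29 of the 70 members. Many of the others, such as HIST1H1A and HIST1H3B, are annotated as an open reading frame alone, where the search could not find it. A member without a hit therefore does not count as lacking the stem-loop. The following stretches show it, in capitals, for an H2A, an H2B and an H4 gene on chromosome 6 and for an H2B gene on chromosome 1.
HIST1H2AC: caaaGGCTCTTTTCAGAGCCcccct
HIST1H2BC: caaaGGCTCTTTTAAGAGCCaccca
HIST1H4E: caaaGGCCCTTTTCAGGGCCgccca
HIST2H2BE: caaaGGCTCTTTTCAGAGCCaccca
The H2A and H2B members differ from the H4 member in the stem, which begins ggctct in 22 members of the H2A, H2B and H3 families and ggccct in the 7 H4 members that carry it. Transcripts of 22 members also hold the polyadenylation signal AATAAA within their last 40 bases. The last 30 bases of such transcripts are shown for HIST1H2AC and HIST2H2BE, with the signal in capitals, and below them the end of the HIST1H4C transcript, whose last 20 bases, in capitals, hold 18 A.
HIST1H2AC: agcctggcatgaggtAATAAAaggtaatgc
HIST2H2BE: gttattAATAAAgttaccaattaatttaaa
HIST1H4C: acttcAAAAAACAAAAACAAAAAAA

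The 11 libraries were not 11 samples. Within a group, pairs of libraries shared from 99.3% to 99.9% of their cell barcodes, and between groups at most 0.737%, so the libraries of a group were averaged as repeat runs of 1 set of droplets. Each group is then 1 sample: no difference between groups has a replicate check, no test was made, and the 95% intervals cover counting error only. After filtering, 4597 cells with PD173074 (3 runs), 3534 without it (5 runs) and 8183 of the 2D culture (3 runs) remained. Their median depths were 6648, 5060 and 4313 UMIs (unique molecular counts) per cell. The library with the fewest UMIs, run 3 without PD173074, held 12266166, and the other 10 held between 23074862 and 46304366. The 6 cardiomyocyte markers were all at 1 CPM (UMIs per 1000000) or more in each group, and summed to 14461 CPM with PD173074, 13130 CPM without it and 10070 CPM in the 2D culture. Stromal markers summed to 2096, 1793 and 3950 CPM in the same order, epithelial markers to 1744, 884 and 444 CPM, and each of the 4 pluripotency markers stayed under 1 CPM. The part of these cell mixtures in the histone values was not tested. In summed counts, fewer cells making a transcript and less of it per cell cannot be told apart.

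Over all cells the 70 members together reached 649 CPM with PD173074 (641 to 657), 653 CPM without it (638 to 660) and 264 CPM in the 2D culture (260 to 269). The runs of a group ranged from 648 to 650 CPM, from 637 to 694 CPM and from 262 to 266 CPM. The cardioid groups thus overlapped across runs, but only through run 3 without PD173074, the shallowest, at 694 CPM. The other runs of that group, at 637 to 647 CPM, lay slightly below every run with PD173074. Both cardioid groups lay above every run of the 2D culture. At 1 CPM or more in a group were 38 members, and at 5 CPM or more 21. No UMI was found for 4 members (HIST1H4G, HIST2H3A, HIST2H3C and HIST3H3, named after their values were seen). For HIST1H4G and HIST3H3 this allows up to 0.0819 CPM with PD173074, 0.141 CPM without it and 0.067 CPM in the 2D culture, taken as 3 counts per run, while HIST2H3A and HIST2H3C share their sequence with each other and get no limit. The testis-specific HIST1H1T had 0.109 CPM with PD173074, 0.0341 CPM without it and 0.00725 CPM in the 2D culture, and HIST1H2AA and HIST1H2BA had no UMI in either cardioid group.

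**Figure D1:**
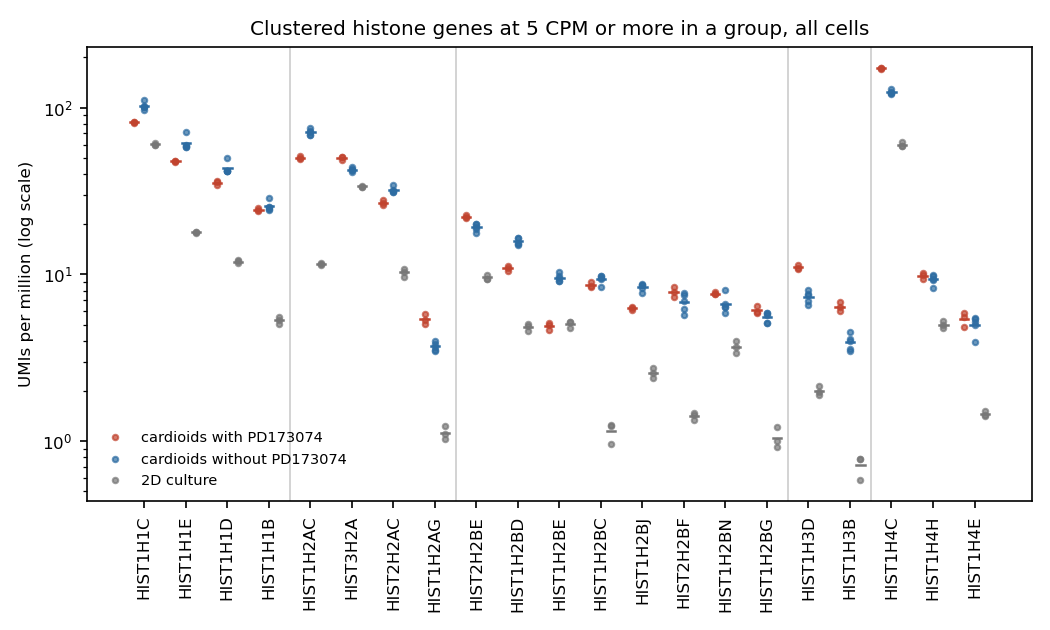
UMIs per 1000000 (log axis) of the 21 members at 5 CPM or more in at least 1 group, over all cells. Points are runs of the same droplets, short lines their means, and grey lines separate the families H1, H2A, H2B, H3 and H4. HIST1H4C had the highest level with PD173074 (173 CPM) and without it (124 CPM), and HIST1H1C in the 2D culture (60.1 CPM).

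Few genes carried most of these counts. HIST1H4C, an H4 gene, held 26.6% of the members' summed CPM with PD173074 and 19.0% without it. HIST1H1C, a linker histone gene, held 22.7% in the 2D culture. The leading 10 members held 80.4% with PD173074, 82.2% without the inhibitor and 85.1% in the 2D culture. HIST1H4C, HIST1H1C, HIST1H1E, HIST1H1D, HIST1H2AC, HIST3H2A, HIST2H2AC, HIST1H1B and HIST2H2BE were among the leading 10 in all 3 groups.

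The comparison of PD173074 with its absence asks what FGF receptor inhibition does in the cardioids. A member was in range at 1 CPM or more in either group, with more than 3 UMIs per run on average in at least 1 of them, and was called higher or lower if all of its counting interval lay beyond 2-fold. By that rule 0 of the 38 members in range were higher and 0 lower with PD173074, while over all genes in range 3.47% were higher and 2.01% lower. The summed level differed by -0.01 on the log2 scale (-0.04 to 0.02), with 25 of 38 members above 0 and a median of 0.20, beside -0.09 over all genes.

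The families did not share 1 direction. The 5 linker histone genes in range were all below 0, and the H1 family summed to 191 CPM with PD173074, against 236 CPM in its absence (log2 ratio -0.31). HIST1H1C had 81.7, 81.9 and 81.2 CPM in the runs with PD173074, and 100.3, 102, 112, 100.2 and 96.6 CPM in those without it. Its runs did not overlap between the groups (log2 ratio -0.32, -0.40 to -0.24). As runs repeat the same droplets, their spread shows nothing of the spread between cultures. HIST1H1A, another linker histone gene, showed the largest difference among the members in range (1.45 CPM with PD173074, 3.78 CPM without, and a log2 ratio of -1.39, -1.92 to -0.87), and HIST1H2BE, an H2B gene, the next lowest value (4.92 and 9.56 CPM, -0.96). These were the 2 members whose interval lay wholly beyond 1.5-fold, both lower with PD173074, a rule that 4.77% of all genes in range met in that direction. Run 3 without PD173074, the shallowest, had the highest summed H1 level (266 CPM).

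The H4 and H3 families lay on the other side. HIST1H4C had 171, 174 and 173 CPM in the runs with PD173074, and 123, 122, 130, 124 and 121 CPM in those without it. The log2 ratio was 0.48 (0.41 to 0.54), and the runs, again of the same droplets, did not overlap. H4 genes summed to 192 CPM with PD173074 and 141 CPM without it, and H3 genes to 32.9 and 24.0 CPM. Of the H3 genes, HIST1H3D had 11.0 CPM with PD173074 and 7.34 CPM without it, and HIST1H3B 6.41 and 3.92 CPM. Neither passed the 2-fold rule. HIST1H2AC, an H2A gene, had 50.1 and 71.2 CPM (log2 ratio -0.51, -0.61 to -0.41).

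The comparison of cardioids without PD173074 with the 2D culture asks what the organoid format changes. For cardioids with PD173074, format and inhibitor cannot be told apart. The treatment label of the 2D culture does not mention PD173074. Cardioids without PD173074 had 21 of 33 members in range higher than the 2D culture and 0 lower, where 3.11% of all genes in range were higher and 0.304% lower. Cardioids with PD173074 had 28 of 38 members higher and 0 lower, beside 8.4% and 2.82% of all genes. These 2 comparisons share the 2D sample. The summed log2 ratios were 1.31 (1.27 to 1.34) without PD173074 and 1.30 (1.26 to 1.33) with it, and the median members stood at 1.77 and 2.04, beside 0.09 and 0.00 for all genes in range.

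All 5 families were higher in sum in both cardioid groups. In cardioids with PD173074, cardioids without and the 2D culture, H1 genes summed to 191, 236 and 97.0 CPM, H2A genes to 149, 163 and 60.5 CPM, and H2B genes to 83.5, 88.8 and 31.2 CPM. In the same order H3 genes summed to 32.9, 24.0 and 7.93 CPM and H4 genes to 192, 141 and 67.7 CPM. Among single members, the H2B gene HIST1H2BC had 8.62 CPM with PD173074, 9.37 CPM without it and 1.15 CPM in the 2D culture, the largest ratio of a member without PD173074 (log2 3.03, 2.59 to 3.51). HIST1H2AC had 50.1, 51.1 and 49.1 CPM in the runs with PD173074 and from 68.2 to 75.9 CPM in the 5 runs without it. Its 3 runs of the 2D culture had 11.6, 11.5 and 11.4 CPM, far below all cardioid runs. HIST1H3B had the largest ratio with PD173074 (6.41 CPM against 0.715 CPM in the 2D culture, log2 3.16, 2.63 to 3.75). HIST1H2BF, HIST1H2BG, HIST2H2BF and HIST1H2BH, all H2B genes, were higher in both cardioid groups with log2 ratios from 2.27 to 2.66.

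Some abundant members passed the rule in neither cardioid group. HIST3H2A, an H2A gene, had 49.8 CPM with PD173074, 42.5 CPM without it and 33.7 CPM in the 2D culture (log2 ratios against the 2D culture of 0.56 and 0.33). HIST1H1C stood at 0.44 with PD173074 and 0.77 without it, although its runs were above those of the 2D culture in both. HIST1H4C was higher by the rule with PD173074 (1.53, 1.47 to 1.60), and without it had a ratio of 1.05 whose interval reached below 2-fold (0.98 to 1.13). HIST1H2BE had a ratio of -0.04 with PD173074 and 0.92 without it.

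**Figure D2:**
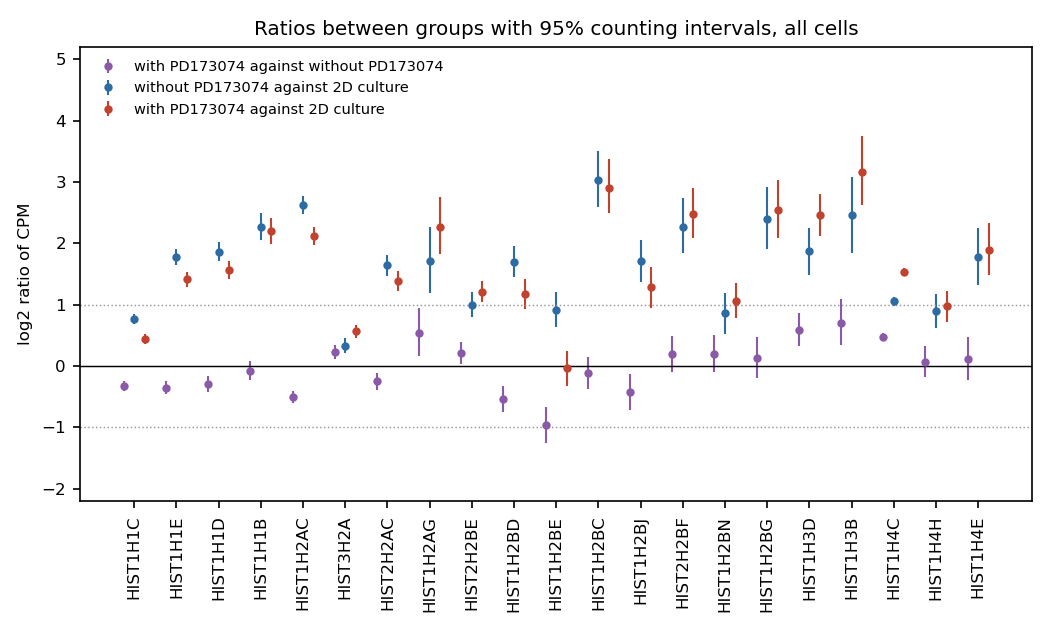
log2 ratios of CPM between groups for the same 21 members, over all cells, with 95% counting intervals; dotted lines mark 2-fold. The ratios of PD173074 against its absence lie between -0.96 and 0.71, while most ratios against the 2D culture lie above 1, up to 3.16.

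The histone levels were then set against the proliferation markers MKI67 and TOP2A. Cells with a UMI of either in any run were 508 (11.1%) with PD173074, 338 (9.56%) without the inhibitor and 597 (7.30%) in the 2D culture. These cells were deeper, with medians of 9078, 6967 and 6712 UMIs, than the cells without either, with 6450, 4947 and 4209. After thinning each cell to 2000 UMIs, the shares of cells with a marker UMI were 5.33%, 4.24% and 2.57%.

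Cells with MKI67 or TOP2A held more clustered histone RNA in each group. With PD173074 the members summed to 1870 CPM in cells with a marker and 428 CPM in cells without (log2 ratio 2.13, 2.09 to 2.16). Without PD173074 the sums were 1806 and 481 CPM (1.91, 1.86 to 1.96), and in the 2D culture 564 and 227 CPM (1.31, 1.25 to 1.38). Of the members in range, 28 of 50 with PD173074, 21 of 46 without it and 16 of 33 in the 2D culture were higher in cells with a marker, and none was lower in any group. Over all genes in range, 3.07%, 2.72% and 2.28% were higher and 0.175%, 0.223% and 0.0244% lower. Whether the ratio differs between groups was not tested. With cells thinned to 2000 UMIs before markers and members were counted, the summed ratios were 2.54, 2.50 and 1.97.

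Of the 5 linker histone genes in range, 5 with PD173074, 5 without the inhibitor and 4 in the 2D culture were higher in cells with a marker. HIST1H1B had 145 CPM in cells with a marker and 2.66 CPM in cells without with PD173074, 182 and 2.31 CPM without PD173074, and 41.6 and 0.729 CPM in the 2D culture. HIST1H1A, HIST1H1D and HIST1H1E were also higher in all 3 groups, HIST1H1D with log2 ratios of 3.33, 3.76 and 2.47 and HIST1H1E with 1.92, 1.80 and 1.29. HIST1H1C was higher with PD173074 (200 against 60.2 CPM) and without it (236 against 82.1 CPM), whereas in the 2D culture it had 75.1 and 58.2 CPM, a log2 ratio of 0.37.

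Of the H3 and H4 genes, HIST1H3B had the largest ratios of any member in range in all 3 groups. It had 39.2 CPM in cells with a marker and 0.485 CPM in cells without with PD173074 (log2 6.34, 5.59 to 7.20), and 29.03 and 0.174 CPM without PD173074 (7.38, 5.82 to 9.14). In the 2D culture it had 5.98 and 0.0504 CPM (6.89, 4.91 to 10.0), the lower value resting on about 2 UMIs a run. HIST1H3G, HIST1H3F and HIST1H3D were higher in all 3 groups too. HIST1H4C, the most abundant member in cells with a marker, had 756, 779 and 770 CPM there in the runs with PD173074, between 502 and 536 CPM in the 5 runs without it, and 208, 204 and 200 CPM in the 2D culture. In cells without a marker it averaged 64.8, 65.3 and 41.5 CPM, which gave log2 ratios of 3.57, 2.98 and 2.30. The cardioid groups were thus apart for this gene in cells with a marker and close together in cells without.

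The H2A and H2B genes divided. HIST1H2AJ, HIST1H2AH, HIST1H2AM, HIST1H2AG, HIST1H2BH and HIST1H2BJ were higher with a marker in all 3 groups, HIST1H2AJ by log2 5.12, 6.56 and 5.39. The size of these 3 ratios rests on few UMIs in cells without a marker. Among cells with 10 or more cardiomyocyte UMIs, HIST1H2AJ had only 0.207, 0.114 and 0.0533 CPM in those without a marker. HIST3H2A had lower values with a marker, 29.2 against 53.5 CPM with PD173074 (log2 -0.87, -1.11 to -0.64), 34.1 against 43.7 CPM without it and 25.9 against 34.7 CPM in the 2D culture. HIST2H2BE likewise had 11.7 against 24.1 CPM with PD173074 (-1.05, -1.45 to -0.69), 12.7 against 20.2 CPM without it and 6.74 against 9.95 CPM in the 2D culture. None of these passed the 2-fold rule, and with PD173074 both lay wholly beyond 1.5-fold, as did 0.776% of all genes in range in that direction. HIST1H2AC had 37.6 against 52.4 CPM with PD173074 and 44.0 against 75.3 CPM without it, while in the 2D culture its interval spanned 0 (0.24, -0.15 to 0.62). As a family, H2A genes summed to 201 CPM in cells with a marker and 140 CPM in cells without with PD173074, and H2B genes to 99.9 and 80.6 CPM, far closer than H3 genes (137 and 14.0 CPM) or H4 genes (804 and 81.5 CPM).

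**Figure D3:**
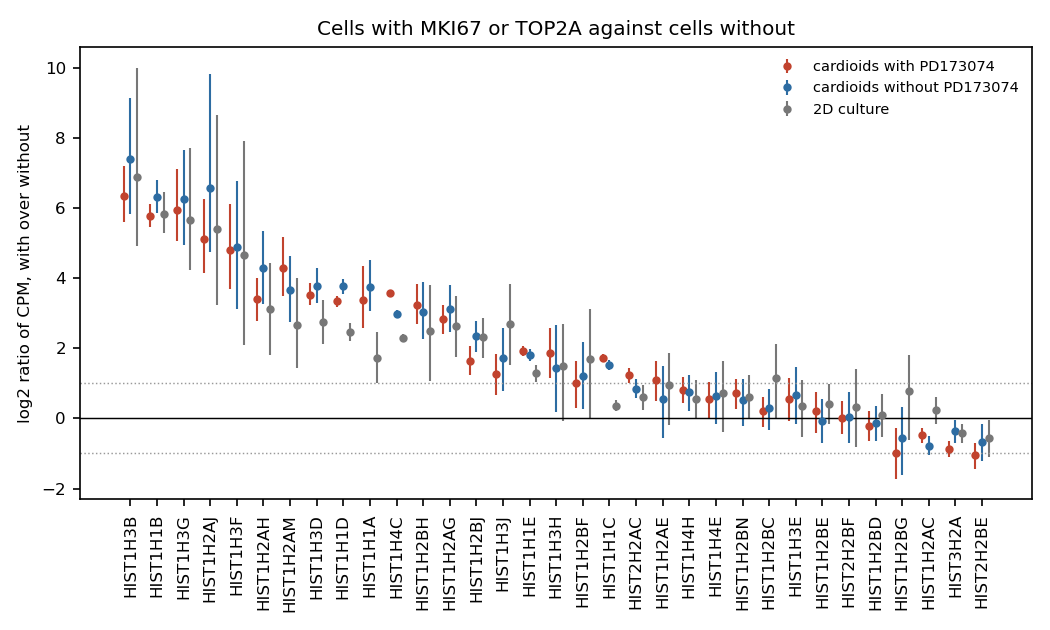
log2 ratios of CPM in cells with MKI67 or TOP2A over cells without, for the 33 members in range in all 3 groups, ordered by their mean, with 95% counting intervals; dotted lines mark 2-fold. HIST1H3B is at the top with ratios of 6.34, 7.38 and 6.89, and HIST2H2BE at the bottom with -1.05, -0.67 and -0.56.

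The ratios followed the number of marker UMIs. The summed members stood at 428, 529, 954 and 3011 CPM with PD173074 in cells with 0, over 0 to 1, over 1 to 3 and over 3 marker UMIs per run. Without PD173074 the sums were 481, 512, 1343 and 3920 CPM, and in the 2D culture 227, 278, 658 and 1398 CPM. Median depth was also highest in the last class, at 11585, 9026 and 8407 UMIs in the order of the groups, and its part in these values was not tested. HIST3H2A was lowest in the last class, with 53.5, 38.6, 33.8 and 21.7 CPM over the 4 classes with PD173074. Without PD173074 it had 43.7, 37.6, 44.2 and 25.2 CPM, and in the 2D culture 34.7, 28.1, 30.3 and 13.8 CPM, so in these groups it did not fall steadily.

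**Figure D4:**
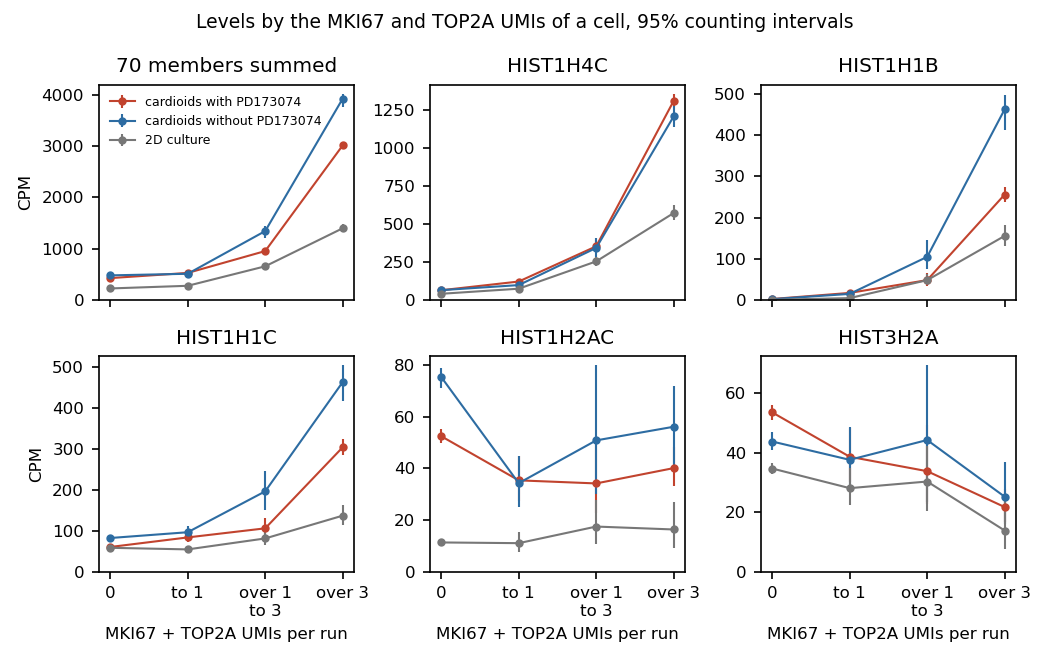
Levels in CPM, for the 70 members summed and for 5 single members, in cells grouped by their MKI67 and TOP2A UMIs per run, with 95% counting intervals. The sum, HIST1H4C, HIST1H1B and HIST1H1C are highest in cells with over 3 marker UMIs in every group, and HIST3H2A is lowest there.

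Within the cells with a marker, the histone level was highest in cells that also had UMIs of both a list of 10 S phase genes and a list of 5 mitotic genes. In those cells the members summed to 2502 CPM with PD173074 (283 cells), 2395 CPM without it (189 cells) and 726 CPM in the 2D culture (267 cells). Cells with a marker and S phase genes only had 530, 608 and 321 CPM, and those with mitotic genes only 661, 744 and 460 CPM. Cells with a marker and no gene of either list had 619, 600 and 338 CPM. Those with S phase genes only were thus below or near that level. Cells without a marker that had UMIs of both lists held 379, 416 and 227 CPM, below or near the 465, 520 and 226 CPM of cells with neither a marker nor a gene of the lists. HIST1H3B had 55.7, 41.5 and 9.48 CPM in cells with a marker and both lists, and at most 7.22 CPM in any other class of any group. Cells with both lists were also the deepest, with medians of 10959, 8525 and 8819 UMIs.

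The differences between groups were present on both sides of the marker split. Among cells with a marker, cardioids without PD173074 had 18 of 44 members in range higher than the 2D culture (1.14% of all genes, 0.144% lower) and cardioids with it 20 of 50 (4.37% of all genes, 1.73% lower), with 0 lower in both. Among cells without a marker the counts were 12 of 28 (3.03% of all genes, 0.304% lower) and 15 of 29 (8.02% of all genes, 2.69% lower), again with 0 lower. HIST1H2AC differed on both sides. In cells without a marker it had 52.4 CPM with PD173074, 75.3 CPM without it and 11.3 CPM in the 2D culture. The log2 ratios against the 2D culture there were 2.21 and 2.73. In cells with over 3 marker UMIs per run it had 40.1, 56.0 and 16.3 CPM in the same order. HIST1H4C differed mainly in cells with a marker, where its ratio was 1.91 with PD173074 and 1.34 without it, beside 0.64 and 0.66 in cells without.

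Between the cardioid groups, 1 member passed the rule among cells with a marker. HIST1H1A was lower with PD173074, at 6.17 CPM against 19.5 CPM without it (log2 -1.66, -2.31 to -1.005), where 1.09% of all genes in range were lower and 1.5% higher. The other H1 genes had ratios from -0.58 (HIST1H1D) to -0.24 (HIST1H1C) in these cells, and HIST1H4C 0.57 (0.49 to 0.66). Among cells without a marker 0 of 29 members were higher and 0 lower, beside 3.41% and 1.97% of all genes.

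Cells with at least 1 member UMI, after thinning to 2000 UMIs, made up 54.6% with PD173074 (53.1 to 56.1, exact binomial interval), 58.2% without the inhibitor (56.4 to 59.8) and 38.0% in the 2D culture (36.9 to 39.1). Cells shallower than 2000 UMIs were left out: 310, 271 and 666. Unthinned, the shares were 82.4%, 81.4% and 62.1%. HIST1H1B had a UMI in 16.6%, 18.3% and 7.12% of thinned cells with a marker, and in 0.569%, 0.426% and 0.168% of those without. No cell class known to lack clustered histone RNA was at hand, so the share that free RNA gives was not measured.

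The members also differed in their annotated transcripts. A part outside the longest open reading frame of 250 or more bases, a length chosen after the values were seen, is annotated for 25 of the 70 members. Of the 15 members that were higher with a marker in all 3 groups, 11 had no such part and 4 had one (HIST1H2AG, HIST1H2BH, HIST1H2BJ and HIST1H3G). Of the 11, HIST1H1A, HIST1H1B, HIST1H1D, HIST1H2AH, HIST1H2AJ, HIST1H2AM, HIST1H3B, HIST1H3D and HIST1H3F are annotated as an open reading frame alone. For these genes a short end and an end missing from the annotation cannot be told apart. Of the 14 that were in range and higher in none, 13 had one and 1 did not (HIST1H2AE). The 13 were HIST1H2AC, HIST1H2BC, HIST1H2BD, HIST1H2BE, HIST1H2BF, HIST1H2BG, HIST1H2BN, HIST1H3E, HIST1H4E, HIST1H4H, HIST2H2BE, HIST2H2BF and HIST3H2A. Being higher in none does not mean an equal level with and without a marker. HIST1H2BF had log2 ratios of 0.997, 1.22 and 1.70 and HIST1H2AE 1.09, 0.55 and 0.94, while HIST2H2BE had -1.05, -0.67 and -0.56. In HIST1H2AC an annotated transcript continues for 1128 bases beyond the stem-loop shown above, and in HIST2H2BE for 1729 bases. This is a description of 29 members of related sequence and an annotation, with no test. Of the same 14 members, 7 were higher in cardioids without PD173074 than in the 2D culture and 8 in those with it, beside 3.11% and 8.4% of all genes in range, with medians of 1.42 and 1.35 on the log2 scale. Of the 15, 12 of 14 in range were higher without PD173074 and 13 of 15 with it, beside the same shares of all genes, with medians of 1.93 and 2.26.

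**Figure D5:**
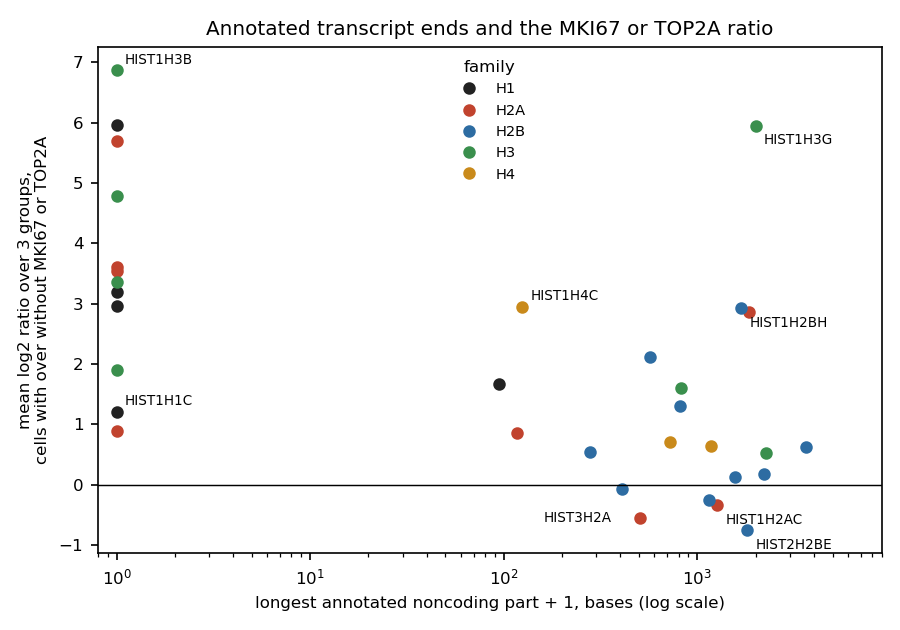
Mean over the 3 groups of the log2 ratio in cells with MKI67 or TOP2A over cells without, against the length of the longest annotated noncoding part of a transcript plus 1 (log axis), for the 33 members in range in all groups, coloured by family. Members with ratios near or below 0 sit at the right, where HIST1H3G, HIST1H2BH and HIST1H2AG stand above the others. Members at the left edge are annotated as an open reading frame alone, so their true ends are not known from the annotation.

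Promoters were matched for 65 members (RefSeq, GRCh38.p14, from 250 bases before to 50 after the start). The CCAAT box was found on either strand in 56 of them (86.2%), against 35.7% of 27305 promoters, and the TATA box TATAAA in 43 (66.2% of them, against 12% of all). The octamer ATTTGCAT was in 26 (40% against 1.80%), of which 11 were of 16 H2A and 14 of 18 H2B promoters. Back to back starts within 500 bases were found for 12 pairs, 11 of them of an H2A and an H2B gene. The windows of such a pair overlap, so 1 motif site can be counted for both genes. The motif counts above are therefore of promoters and not of separate sites. One such pair is HIST1H2AC and HIST1H2BC, both of which had large ratios of cardioids to the 2D culture and none passing the rule by marker. The 245 bases between their RefSeq starts (chr6:26123927-26124171, plus strand, reading toward HIST1H2AC) are given below with these motifs in capitals, followed by the 250 bases before HIST1H3B (chr6:26032100-26032349, minus strand), the member with the largest ratio by marker.
HIST1H2AC and HIST1H2BC: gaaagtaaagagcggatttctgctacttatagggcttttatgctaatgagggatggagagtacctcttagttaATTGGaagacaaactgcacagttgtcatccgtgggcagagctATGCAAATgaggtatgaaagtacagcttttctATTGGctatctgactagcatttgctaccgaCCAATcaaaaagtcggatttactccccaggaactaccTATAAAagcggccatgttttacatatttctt
HIST1H3B: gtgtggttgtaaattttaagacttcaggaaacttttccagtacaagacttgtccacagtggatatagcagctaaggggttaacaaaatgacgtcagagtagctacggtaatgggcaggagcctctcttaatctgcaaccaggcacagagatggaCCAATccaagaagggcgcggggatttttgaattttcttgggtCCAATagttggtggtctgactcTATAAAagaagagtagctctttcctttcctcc
The octamer lies in the first stretch and not in the second, and only 1 of 13 H3 promoters held it. That promoter, of HIST1H3D, is the same window as that of HIST1H2AD, an H2A gene. It is also in the promoters of HIST1H2AG and HIST1H2BJ, so its presence did not set apart members without a marker call. Of the 12 pairs, 5 had both genes in range in all 3 groups. HIST1H2AG and HIST1H2BJ were both higher with a marker in all groups, and neither gene was in any group for HIST1H2AC and HIST1H2BC or for HIST1H2AE and HIST1H2BG. HIST2H2AC was higher with PD173074 only (1.23, 1.02 to 1.42) while its partner HIST2H2BE stood at -1.05. HIST1H3D, which has its RefSeq start at that of HIST1H2AD, was higher in all groups. HIST1H2BF passed the rule in none, although its log2 ratios were 0.997, 1.22 and 1.70. A member without a call can thus still have a ratio near or above 2-fold.

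Other genes of the histone supply were read from lists chosen with earlier results known. Of 19 genes for histone mRNA processing and deposition, 0 were higher or lower in any of the 3 group comparisons, with medians of -0.10 with PD173074 against without it, 0.04 without it against the 2D culture and -0.03 with it against the 2D culture. With a marker 3, 4 and 3 of them were higher in the 3 groups. ASF1B, a chaperone that delivers H3 and H4, had 33.3 against 1.68 CPM with PD173074, 30.3 against 0.969 CPM without it and 28.0 against 1.69 CPM in the 2D culture. CHAF1A and CHAF1B, of the complex that places H3 and H4 on new DNA, were higher with a marker in all 3 groups. The 13 replacement and orphan histones, which lie outside the clusters, summed to 4248.5 CPM with PD173074, 4065 CPM without it and 3429 CPM in the 2D culture. Of them only CENPA, the H3 form of the centromere, passed the rule between groups (15.4 CPM with PD173074 against 6.25 CPM in the 2D culture). H2AFZ, an H2A variant, had 1528 against 356 CPM by marker with PD173074, 1652 against 381 CPM without it and 1322 against 441 CPM in the 2D culture.

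S phase genes served beside them as a list of 20. All 20 were higher with a marker in every group, and 0 of 20 were higher or lower between any groups, with a median of 0.18 without PD173074 against the 2D culture, where the median clustered histone stood at 1.77. Among cells with a marker S phase genes summed to 1642 CPM with PD173074, 1868 CPM without it and 1409 CPM in the 2D culture. Of 20 genes of G2 and mitosis, which include MKI67 and TOP2A, 2 were higher without PD173074 than in the 2D culture and 16 with it. Over all genes in range the shares were 3.11% and 8.4%. In sum over all cells this list had 624 CPM with PD173074, 422 CPM without it and 232 CPM in the 2D culture. It was thus, like the clustered histones, higher in sum in both cardioid groups.

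Values of single members carry the limits of near-identical sequence. Stretches of 60 bases are shared between members by 29 of the 70 genes, and 12 share at least 50% of theirs. HIST2H3A and HIST2H3C share all of theirs with other members, as do HIST2H2AA3 and HIST1H4K, so the counting could split or drop their reads. HIST1H4K was counted at 0.0912 CPM or less in each group and HIST2H2AA3 at 0.0273 CPM or less. Among members described here, HIST1H2AJ shares 83.2% with HIST1H2AI, and HIST1H2AM and HIST1H3J overlap on the same strand. HIST1H4C, HIST1H3B, the H1 genes, HIST1H2AC and HIST3H2A share none.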

How the data were processed

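Single-cell 3′ RNA libraries of H9 cells were read from the deposited matrices of UMI counts, which the authors made with Cell Ranger 7.0.0 on the hg38 build, per the submitters' processing notes. The gene annotation and the handling of intronic reads were not given in the sources used here. Protocols in the labels name 2 versions of the 10x kit without assigning them to libraries. No columns of other samples were present.

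Cells had at least 1000 UMIs, 500 genes and at most 30% mitochondrial UMIs, and a barcode listed in every run of the group. Doublets were not removed. Counts were scaled to CPM per run, and the runs of a group were averaged because they share their barcodes. A ratio has an exact conditional 95% counting interval from the mean counts over runs; UMIs within a cell are not independent samples of a condition, so it covers counting error only. A gene was in range at 1 CPM or more in the higher set with more than 3 UMIs per run, on average and rounded, in at least 1 set, and was higher or lower when the whole interval lay beyond 2-fold. Cells with MKI67 or TOP2A had a UMI of either in any run, and the group without PD173074 had more runs in which one could be found. Shares of cells were compared after thinning to 2000 UMIs.

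The members named in the text were those at 5 CPM or more over all cells or in cells with a marker, or past the rule in any comparison; 44 of 70 met this, not all of which are described singly. Members at 0 or of full sequence overlap, and testis-specific ones, were named after their values were seen. From the lists outside the clusters, up to 4 genes were taken by the size of their ratio. The members and lists were chosen with earlier results of these data known. Gene models and transcripts were those of GENCODE release 29, with 68 members matched by ID and 2 by symbol, and promoters those of RefSeq, matched by a listed name whose record overlaps the member's gene model. The calculations used Python 3.11.15, numpy 2.4.6, scipy 1.17.1, pandas 2.3.3 and matplotlib 3.10.9, and the interval and the call rule were tested on simulated data. The alternatives tried were other scalings, floors, folds, cell filters, marker rules and thinning depths, a cut on cardiomyocyte markers, and leaving out each run.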

Additional observations from a re-analysis of the deposited data

Results flagged for a closer look

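In 5 of 45 quantities checked over the 5 runs without PD173074, run 3 stood apart from the other 4 by more than Dixon's 95% value of 0.71. Chance marks about 1 in 20 such groups if all runs have equal spread. That rate does not carry over to these 45, which share the same runs and include the members' sum. Run 3 was the highest in each. It had 694 CPM for the 70 members summed, against 637 to 647 CPM in the other runs. HIST1H1B had 28.8 CPM in run 3 and 24.3 to 25.3 CPM in the others, HIST1H1D 50.1 CPM and 41.6 to 41.9 CPM, HIST1H1E 71.0 CPM and 58.0 to 59.6 CPM, and HIST2H2AC 34.4 CPM and 31.0 to 31.9 CPM. Run 3 held 12266166 UMIs, against at least 23074862 in the others. It also stood apart outside the histones. Before filtering, ribosomal protein genes made up 10.4% of its UMIs, against 9.65% to 9.68% in the other runs. Mitochondrial genes made up 3.79%, against 3.38% to 3.40%. The part of depth in these values was not tested. With run 3 left out, 21 members were higher without PD173074 than in the 2D culture, as with it, and the summed log2 ratio was 1.28.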

How the results depend on the processing

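Of the 44 named members, 0 had a called ratio that changed sign in any alternative run. The summed ratio of PD173074 to its absence, -0.01, lay near 0 on either side: 0.06 without mitochondrial and ribosomal protein genes, 0.0874 with median-of-ratios size factors, -0.10 with per-cell CPM and -0.14 in cells with 10 or more cardiomyocyte UMIs. Under these 4, cardioids without PD173074 against the 2D culture gave 1.25, 1.22, 1.26 and 1.18. Cardioids with it gave 1.17 with per-cell CPM and 1.04 in the cardiomyocyte cut. The count of members lower with PD173074 was 1 with per-cell CPM, 1 with intervals from summed counts (HIST1H1A in both) and 2 at 1.5-fold.

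By marker (with PD173074, without it, 2D culture), the summed ratios were 2.09, 1.97 and 1.38 with per-cell CPM, 2.55, 2.83 and 2.07 with a marker UMI in every run, 2.44, 2.54 and 1.94 with MKI67 alone, 2.65, 2.90 and 2.25 with at least 2 marker UMIs, and 2.54, 2.50 and 1.97 after thinning. TOP2A alone gave 2.24 and 1.99 in the cardioids, and the cardiomyocyte cut 2.01 with PD173074 and 1.18 in the 2D culture. Counts of higher members with PD173074 and in the 2D culture were 18 and 9 after thinning. The members in range and the shares over all genes after thinning are not given here. At 1.5-fold 2 members were lower with PD173074.

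With a floor of 5 CPM, 11 members were higher without PD173074 and 14 with it than in the 2D culture, and by marker 18 with PD173074 and 8 in the 2D culture. With 20 CPM these were 5 and 7, and by marker 9, 9 and 4. A higher floor leaves fewer members in range: over all cells 38 reached 1 CPM in a group and 21 reached 5 CPM. The shares over all genes at these floors are not given here, so a smaller count is not a smaller share of members. Thinned to 1000 UMIs, 34.9%, 37.7% and 21.2% of cells had a member UMI.

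Leaving out each run gave summed ratios from -0.02 to 0.01 between the cardioids with 0 members higher or lower, from 1.28 to 1.31 (21 to 22 higher) without PD173074 and from 1.29 to 1.30 (27 to 29 higher) with it against the 2D culture. By marker they were 2.16 to 2.22 (28 to 31), 1.91 to 1.99 (21 to 22) and 1.40 to 1.43 (16 to 17), with 0 lower; fewer runs leave fewer cells with a marker UMI. No paired analysis was possible because the libraries of a group are repeat runs of the same droplets, which leaves 1 sample per group and no test between groups. Cells with and without a marker are paired within each group, but an exact two-sided sign-flip test over 3 groups cannot give a p below 0.25.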
